A study of Mus musculus with 7 samples.

Results

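The SLC25 family is the largest family of solute carriers of the mitochondrial inner membrane. Its members carry ADP and ATP, phosphate, di- and tricarboxylates, amino acids, acylcarnitines, nucleotides, cofactors, iron and glutathione between the cytosol and the matrix, most of them by exchanging one solute for another. In heart muscle, whose contraction runs on mitochondrial ATP, the ADP/ATP carrier and the phosphate carrier feed the ATP synthase, and the oxoglutarate and aspartate/glutamate carriers move the reducing equivalents of cytosolic NADH inwards as part of the malate-aspartate shuttle. The members were all genes of the count table whose symbol is Slc25a followed by a number. They came to 47 of 24421 genes, and 39 of the 47 had enough reads to be tested among 13295 genes.

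RNA sequencing compared 4 libraries of left atria that overexpressed FOG2 with 3 wild type (WT) libraries, all from adult mice of the outbred CD1 strain. FOG2, encoded by Zfpm2, is a zinc finger cofactor of GATA transcription factors, and the series title places it in an atrial network of TBX5 and GATA4 that joins heart failure to atrial fibrillation. All animals had been without doxycycline for 1 week. The labels' protocol calls them DTG and NTG without spelling these out, and the labels used here do not give the promoter of the transgene, sex or litter. They also do not tie each library to its own animal, and the p-values here therefore measure how far libraries spread, which may be partly technical.

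Reads counted to genes came to between 5562520 and 8655655 per library, so that 1 count stood for 0.111 to 0.174 CPM, the gene's count scaled to the library's total of gene counts and adjusted by the TMM method. Zfpm2 had 140, 222, 262 and 246 CPM in FOG2 overexpression libraries 1 to 4, against 31.7, 30.9 and 29.4 CPM in WT libraries 1 to 3. FOG2 overexpression library 1 correlated with its own group at a median r of 0.949 across genes, while every other library reached 0.978 to 0.983. That library and WT library 2 held 545 and 557 CPM of 4 Y-linked transcripts, against 0 to 0.578 CPM in the other 5. A list of 11 handling and immediate early genes summed to 256 to 498 CPM with FOG2 overexpression, highest in library 1. In WT the list summed to 176 to 195 CPM. Of the 11, 3 were called higher and 0 lower, against 1.55% and 3.29% of all tested genes. The part of handling in the values below was not tested. The sarcomere genes of cardiomyocytes were abundant in every library but summed to less with FOG2 overexpression, at 98907 to 136618 CPM against 148492 to 176171 CPM in WT, and 9 of 33 were called lower and 0 higher, against 3.29% and 1.55% of all tested genes. In such bulk tissue, fewer cells of a type and less RNA per cell cannot be told apart.

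The members are related in sequence by repeats of a shared motif. The carrier repeat motif, a proline, any residue, an acidic residue, any 2 residues and then a basic one, occurred 3 times in 27 of the 47 translated coding sequences, 2 times in 12, once in 5 and not at all in 3, Slc25a46, Slc25a51 and Slc25a53. Only the coding sequences of Slc25a4, Slc25a5 and Slc25a31 held the signature of ADP/ATP carriers, a run of arginine codons and then of methionine codons. The stretches around it are shown because the contrast between Slc25a4 and Slc25a5 recurs in the results, and capitals mark the signature codons (GENCODE M21 transcripts on mm10, 5′ to 3′, coding positions 679 to 744 in Slc25a4 and Slc25a5 and 718 to 783 in Slc25a31).
Slc25a4: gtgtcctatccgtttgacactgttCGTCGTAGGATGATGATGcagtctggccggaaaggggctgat
Slc25a5: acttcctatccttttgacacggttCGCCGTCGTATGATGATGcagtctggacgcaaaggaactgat
Slc25a31: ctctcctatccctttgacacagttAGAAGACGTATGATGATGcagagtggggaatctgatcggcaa
Over whole coding sequences, Slc25a4 and Slc25a5 were identical at 77.4% of aligned bases, and each was identical to Slc25a31 at 61.2%. None of the 50-base windows of the Slc25a4 transcript occurred in another gene's transcript, but 33.8% of those of Slc25a5 did, most of them in Gm5560. Reads that aligned to several places were counted apart from the genes, so the level of Slc25a5 is uncertain. Of the 47 members, 26 shared at least 1 window with another gene and 14 had an exon overlapping one.

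In both groups a single carrier held most of the family's reads. Slc25a4, the ADP/ATP carrier of heart and skeletal muscle, lies on the minus strand of chromosome 8 from 46206797 to 46211284 (mm10) and had the highest level per length, 1166 ± 111 CPM per kilobase of exon with FOG2 overexpression and 1637 ± 132 in WT (SD, n = 4 and 3). It made up 55.6%, 52.1%, 52.4% and 55.7% of the family's counts in the FOG2 overexpression libraries, against 59.7%, 59.2% and 59.7% in WT, with no overlap. Next by length-scaled level came Slc25a11, the oxoglutarate/malate carrier, at 130 ± 9.93 CPM per kilobase with FOG2 overexpression and 178 ± 18.6 in WT. Slc25a3, the phosphate carrier, had 123 ± 3.09 CPM per kilobase with FOG2 overexpression and 152 ± 18.2 in WT. The spreads of Slc25a11 and Slc25a3 overlapped within each group, so the order of these neighbours is not settled. Slc25a5, the widely expressed ADP/ATP carrier, came next at 68.7 ± 14.8 CPM per kilobase with FOG2 overexpression and 50.6 ± 6.50 in WT. The family as a whole took 0.539%, 0.513%, 0.505% and 0.545% of gene counts with FOG2 overexpression, against 0.576%, 0.628% and 0.639% in WT. Each FOG2 overexpression share lay below each WT share.

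**Figure D1:**
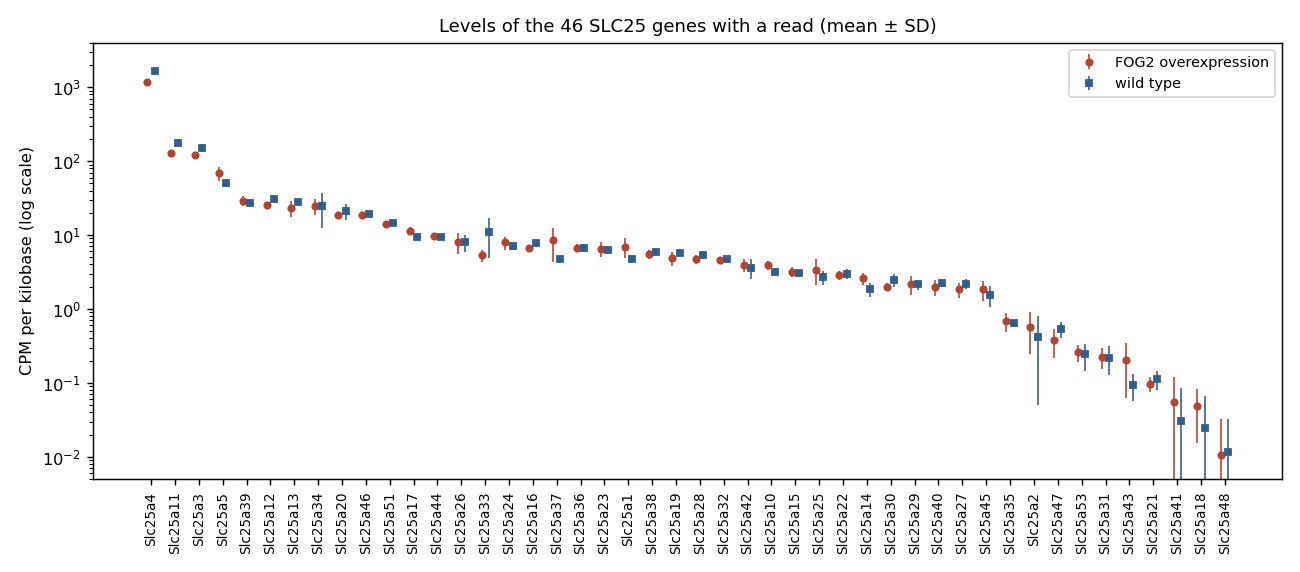
Mean CPM per kilobase of exon (log scale) of the 46 members with at least 1 read, in order of level, with FOG2 overexpression (circles, n = 4) left of WT (squares, n = 3) and bars of 1 SD, which run off the axis where they reach 0. Slc25a4 stands far above the rest, and its 2 groups are visibly apart.

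No SLC25 gene passed the test between FOG2 overexpression and WT. At a Benjamini-Hochberg adjusted p under 0.05 in edgeR's quasi-likelihood test, 0 of 39 members were called higher and 0 lower, against 4.84% of all tested genes called in either direction (1.55% higher, 3.29% lower). At an unadjusted p under 0.05 there were 9 members, 4 higher and 5 lower, or 23.1% against 19.2% of all tested genes. The 2 groups did not overlap in 7 members, or 17.9% against 19.8% of all tested genes, so neither share stood far from the background. Slc25a4, Slc25a11, Slc25a3, Slc25a12, Slc25a33 and Slc25a16 were the 6 with every FOG2 overexpression library below every WT library, and Slc25a1 the 1 with every library above, against 10.8% and 8.99% of all tested genes. The median log2 fold change of the members was -0.0015 (20 below 0, 19 above), against 0.02 over all tested genes. The 95% interval of the fold change lay within 2-fold either way for 34 of the 39 members and within 1.5-fold for 18. DESeq2, used as an alternative, called 4 members lower, Slc25a4, Slc25a11, Slc25a3 and Slc25a33, with 4.49% of its 14982 genes called lower.

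**Figure D2:**
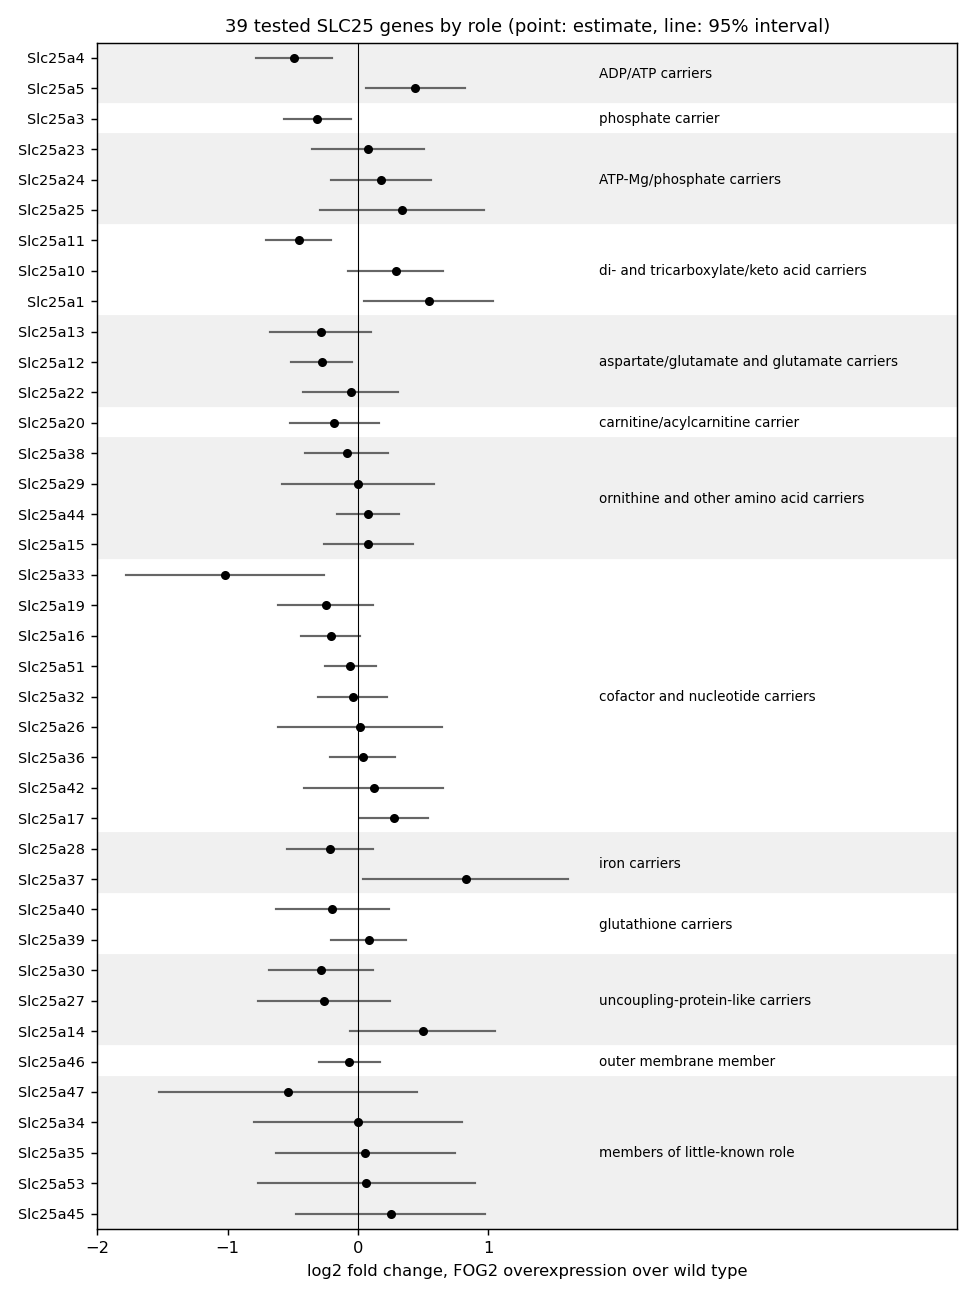
Log2 fold change of FOG2 overexpression over WT for the 39 tested members, grouped by role, with points for the estimate and lines for the unadjusted 95% interval. With TMM scaling Slc25a4, Slc25a3 and Slc25a11 lie left of 0, near or past it when scaled to the sarcomere genes, and Slc25a5, Slc25a1 and Slc25a37 right of it, while the intervals of 30 of the 39 include 0.

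Library scaling set the sign of several members' values. Scaled to the sarcomere genes, which were themselves lower with FOG2 overexpression, the log2 fold change was -0.02 for Slc25a4, 0.02 for Slc25a11, 0.17 for Slc25a3 and 0.19 for Slc25a12, and that of Slc25a5 was 0.92. In that scaling 11 members were called higher and 0 lower, against 32.6% of all tested genes called higher, with medians of 0.46 for the members and 0.50 for all genes. In the 5 libraries without Y-linked transcripts, 3 with FOG2 overexpression and 2 WT, the log2 fold change was -0.48 for Slc25a4, -0.35 for Slc25a11, -0.42 for Slc25a33 and 0.21 for Slc25a5, and no member was called. Without FOG2 overexpression library 1, the library that stood apart, 2 members were called lower, Slc25a4 (edgeR adjusted p = 0.0421) and Slc25a11 (edgeR adjusted p = 0.0389), and 0 higher, against 4.99% of 13191 genes called lower and 3.74% higher (8.73% in either direction).

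Of the ADP/ATP carriers, the muscle form had a lower mean and the widely expressed form a higher one with FOG2 overexpression, and neither passed the test. Slc25a4 had 2882, 2491, 2561 and 3042 CPM with FOG2 overexpression, against 3493, 4032 and 4030 CPM in WT. Every FOG2 overexpression library lay below every WT library. The means were 2744 ± 262 and 3852 ± 310.5 CPM (SD, n = 4 and 3), a log2 fold change of -0.49 ± 0.13 (SE) with an edgeR adjusted p of 0.0670 that missed the threshold. Slc25a5 (X chromosome, 36795651 to 36798807, plus strand) had 147, 98.9, 92.2 and 114 CPM with FOG2 overexpression, against 80.4, 74.4 and 95.2 CPM in WT. Here most FOG2 overexpression libraries were the higher ones, but library 3 lay just under WT library 3, so the groups overlapped. Its log2 fold change was 0.44 ± 0.17 with an edgeR adjusted p of 0.194. Of 12 tested atrial cardiomyocyte markers, 11 had a log2 fold change below 0 with a median of -0.71. Of these 12, 6 were called lower and 0 higher, against 3.29% and 1.55% of all tested genes. The 13 listed summed to 32921 to 42124 CPM with FOG2 overexpression, against 59328 to 66485 CPM in WT. Markers of some other cell types had higher values with FOG2 overexpression, and those of others had lower ones. The part of any of these cells in the contrast of Slc25a4 and Slc25a5 was not tested. Of 12 fibroblast markers, 11 had a log2 fold change above 0 with a median of 0.46 and 0 were called, and they summed to 16213 to 19681 CPM with FOG2 overexpression, against 11715 to 16589 CPM in WT. Of 10 smooth muscle and pericyte markers, 3 were called higher and 0 lower, against 1.55% and 3.29% of all tested genes, with a median of 0.94. They summed to 1258 to 1767 CPM with FOG2 overexpression, against 482 to 587 CPM in WT. Of 5 endocardium markers, 5 had a log2 fold change below 0 with a median of -0.42, and 1 was called lower and 0 higher. They summed to 1582 to 1849 CPM with FOG2 overexpression, against 2006 to 2147 CPM in WT. Of 10 vascular endothelium markers, 8 lay below 0 with a median of -0.10, and 0 were called. Slc25a31, the testis ADP/ATP carrier, had 26 counts over all libraries and was not tested.

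Slc25a3 brings in the phosphate that the synthase joins to ADP. It had 668, 673, 677 and 706 CPM with FOG2 overexpression, against 737, 938 and 860 CPM in WT. The FOG2 overexpression libraries lay close together and below WT, whose lowest library came near them. Its log2 fold change of -0.31 ± 0.11 did not pass the test (edgeR adjusted p = 0.174). Among the ATP synthase subunits themselves, 0 of 13 tested were called, against 4.84% of all tested genes. All 13 had a log2 fold change below 0. The median was -0.25, which was -0.13 with library totals only and 0.21 when scaled to the sarcomere genes. The subunit with the smallest p, Atp5j, had 189, 181, 135 and 178 CPM with FOG2 overexpression, against 238, 235 and 239 CPM in WT (log2 fold change -0.47 ± 0.12, edgeR adjusted p = 0.0595). The ATP-Mg/phosphate carriers Slc25a23, Slc25a24 and Slc25a25, which respond to calcium and set the adenine nucleotide content of the matrix, had log2 fold changes of 0.07, 0.18 and 0.34, with overlapping groups.

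**Figure D3:**
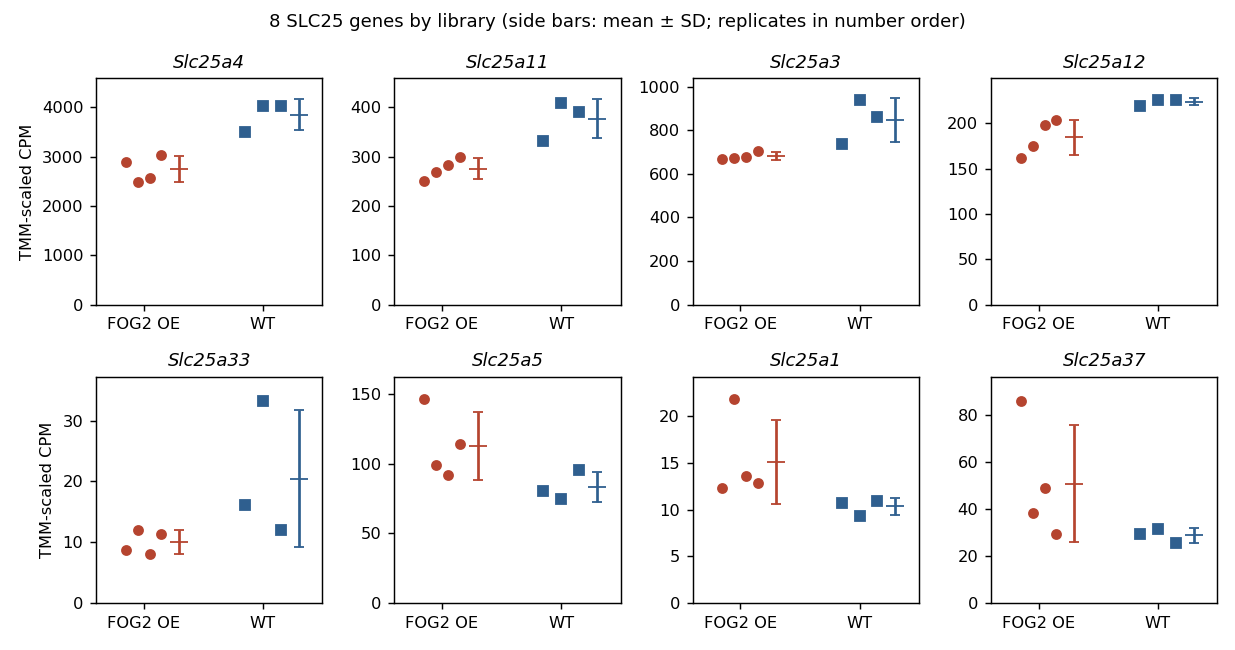
TMM-scaled CPM of 8 members in each library, with FOG2 overexpression (circles, n = 4) left of WT (squares, n = 3) and side bars for the mean ± SD, each panel starting at 0. With this scaling Slc25a4, Slc25a11, Slc25a3 and Slc25a12 are lower in every FOG2 overexpression library, a difference that scaling to the sarcomere genes removes, and single libraries stand out for Slc25a33, Slc25a1 and Slc25a37.

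Among the creatine kinases and cyclophilin D, 2 of the 5 tested genes were called lower with 0 higher, against 3.29% and 1.55% of all tested genes. Ckmt2, the mitochondrial creatine kinase of sarcomeric muscle, which turns exported ATP into phosphocreatine, had 737, 668, 710 and 793 CPM with FOG2 overexpression, against 1066, 1075 and 1089 CPM in WT. It fell, with groups well apart and a log2 fold change of -0.57 ± 0.10 (edgeR adjusted p = 0.0162). Ppif, which encodes cyclophilin D, the matrix regulator of the permeability transition pore, had 25.3, 30.9, 37.9 and 27.9 CPM with FOG2 overexpression, against 59.0, 74.1 and 55.4 CPM in WT. It also fell, by 1.05 ± 0.16 on the log2 scale (edgeR adjusted p = 0.00567). The Ppif call held in every alternative run, whereas Ckmt2 lost its call when FOG2 overexpression library 3 or any 1 WT library was left out (edgeR adjusted p = 0.0529 to 0.0858).

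Within the malate-aspartate shuttle, 2 of 4 enzymes passed the test and none of the carriers did, though a difference between enzymes and carriers was not tested. Slc25a11 (chromosome 11, 70644196 to 70647479, minus strand) exchanges malate for oxoglutarate and had the smallest p of the family. It had 250, 268, 283 and 300 CPM with FOG2 overexpression, against 332, 408 and 390 CPM in WT. The groups did not overlap, and the log2 fold change was -0.45 ± 0.11 with an edgeR adjusted p of 0.0517. Slc25a12, the aspartate/glutamate carrier of heart, brain and muscle, had 161, 175, 198 and 204 CPM with FOG2 overexpression, against 219, 226 and 226 CPM in WT. It too had all FOG2 overexpression libraries lowest, with a log2 fold change of -0.28 ± 0.10 (edgeR adjusted p = 0.188). Its paralog Slc25a13, known best from liver, overlapped between groups, at 70.5, 80.4, 81.6 and 121 CPM with FOG2 overexpression, against 111, 102 and 111 CPM in WT (log2 fold change -0.29 ± 0.17).

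Of the 4 shuttle enzymes, 2 fell and 0 rose, against 3.29% and 1.55% of all tested genes. Got1, the cytosolic aspartate aminotransferase, had 312, 275, 315 and 361 CPM with FOG2 overexpression, against 471, 556 and 556 CPM in WT (log2 fold change -0.74 ± 0.12, edgeR adjusted p = 0.00908). Mdh2, the mitochondrial malate dehydrogenase, had 364, 338, 355 and 399 CPM with FOG2 overexpression, against 474, 549 and 500.3 CPM in WT (-0.48 ± 0.10, edgeR adjusted p = 0.0337). Both genes were lower in each FOG2 overexpression library than in any WT library. Without WT library 2 neither call held, with an edgeR adjusted p of 0.0563 for Got1 and 0.167 for Mdh2. The Mdh2 call was also lost without WT library 1 or 3 or FOG2 overexpression library 2 or 3 (edgeR adjusted p = 0.0775 to 0.0949). The glutamate carrier Slc25a22 had a log2 fold change of -0.06, and Slc25a18, its paralog, had 4 counts in all and was not tested.

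The other tested carboxylate carriers had higher means with FOG2 overexpression, and none passed the test. Slc25a1 (chromosome 16, 17925223 to 17928219, minus strand) exports citrate, the source of cytosolic acetyl-CoA. It had 12.3, 21.8, 13.6 and 12.8 CPM with FOG2 overexpression, against 10.7, 9.32 and 11.0 CPM in WT. No library of either group reached into the other, but library 2 stood well above its group. The log2 fold change of 0.54 ± 0.22 (edgeR adjusted p = 0.220) was 0.32 without that library. The same library held 99.6 CPM of the 8 adipocyte markers, against 10.2 to 16.3 CPM in the other FOG2 overexpression libraries and 18.4 to 36.7 CPM in WT, and the part of adipocytes in the Slc25a1 value was not tested. Slc25a10, the dicarboxylate carrier, had a log2 fold change of 0.29 ± 0.16 with overlapping groups, and Slc25a21, which carries oxodicarboxylates, had 27 counts in all and was not tested.

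Slc25a20, the carnitine/acylcarnitine carrier through which long-chain fatty acids enter for oxidation, did not separate the groups. It had 85.0, 98.2, 87.3 and 88.7 CPM with FOG2 overexpression, against 75.7, 108 and 122 CPM in WT, with a log2 fold change of -0.18 ± 0.15. The WT libraries spanned the whole FOG2 overexpression range. Of the 6 carnitine shuttle enzymes 0 were called, against 4.84% of all tested genes. Cpt1a, the carnitine palmitoyltransferase of the outer membrane best known from liver, had the smallest p of the 6. Its log2 fold change was 0.45 ± 0.16 (edgeR adjusted p = 0.155).

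The amino acid carriers had log2 fold changes near 0. Slc25a15, the ornithine carrier of the urea cycle, had a log2 fold change of 0.08, Slc25a44, which carries branched-chain amino acids, of 0.08, Slc25a38, which supplies glycine for heme synthesis, of -0.09, and Slc25a29, a carrier of basic amino acids, of 0.00, all with overlapping groups. Slc25a2, a second ornithine carrier, had 38 counts in all and was not tested. Prodh, the proline dehydrogenase, was the 1 gene called among 9 tested enzymes of ornithine and glutamate, against 4.84% of all tested genes called. It fell to 17.8 ± 3.09 CPM with FOG2 overexpression, against 28.4 ± 2.92 CPM in WT (log2 fold change -0.68 ± 0.16, edgeR adjusted p = 0.0429). That call was lost in each fit without 1 of FOG2 overexpression libraries 2 to 4 or any 1 WT library, where the edgeR adjusted p reached at most 0.188.

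Of the 9 cofactor and nucleotide carriers 0 were called, and the log2 fold change farthest from 0 rested on 1 library. Slc25a33 (chromosome 4, 149744036 to 149774277, minus strand), a pyrimidine nucleotide carrier, had 8.66, 11.99, 8.002 and 11.4 CPM with FOG2 overexpression, against 16.1, 33.2 and 12.07 CPM in WT. The groups met at 11.99 and 12.07 CPM without overlapping, and WT library 2 was far above the others. The log2 fold change of -1.02 ± 0.33 (edgeR adjusted p = 0.136) was -0.49 without WT library 2. Exons of the antisense gene Gm13068 overlap 281 bases of Slc25a33, and the strand setting of the counting is not given in the sources used here. Slc25a16, linked to coenzyme A, also had groups that did not overlap, at 31.9, 30.2, 33.2 and 34.1 CPM with FOG2 overexpression, against 34.7, 40.1 and 37.4 CPM in WT (log2 fold change -0.21 ± 0.10). Slc25a17, the peroxisomal member that carries coenzyme A and other cofactors, had a log2 fold change of 0.28 ± 0.12 (edgeR adjusted p = 0.239). Slc25a51, the mitochondrial NAD carrier, was the most precisely measured member. It had 80.0, 74.7, 75.8 and 76.9 CPM with FOG2 overexpression, against 76.2, 85.7 and 78.1 CPM in WT. Its log2 fold change was -0.06 ± 0.09, with a 95% interval from -0.25 to 0.14.

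Slc25a37 (mitoferrin 1, chromosome 14, 69241848 to 69285112, minus strand), which brings iron into the mitochondria of developing red cells, varied widely among the FOG2 overexpression libraries. It had 86.3, 38.3, 49.2 and 29.6 CPM there, against 29.5, 31.5 and 25.4 CPM in WT. Library 1 was far above the rest and library 4 lay inside the WT range. The log2 fold change was 0.83 ± 0.34 (edgeR adjusted p = 0.239), and 0.43 without library 1. The erythroid markers followed the same order over the FOG2 overexpression libraries, summing to 242, 56.9, 108 and 27.8 CPM there, against 37.8, 50.8 and 39.7 CPM in WT. Most of the 8 markers are globin genes, and 6 of the 8 were at 0 in every library. The reason for these 0 counts was not tested. Nearly all of the sum came from Alas2, so it describes that gene more than a set. The part of red cell precursors in the Slc25a37 value was not tested. Slc25a28 (mitoferrin 2), the general paralog, had a log2 fold change of -0.21 ± 0.15 with overlapping groups.

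The iron and heme enzymes of the matrix included 2 genes called lower and 0 higher of 12 tested, against 3.29% and 1.55% of all tested genes. Cpox, a heme synthesis enzyme, fell to 17.6 ± 2.25 CPM with FOG2 overexpression, against 25.7 ± 1.28 CPM in WT (edgeR adjusted p = 0.0476). Isca2, an iron-sulfur cluster assembly factor, fell to 35.2 ± 3.04 CPM with FOG2 overexpression, against 47.3 ± 0.366 CPM in WT (edgeR adjusted p = 0.0435). Both calls were lost in each fit without 1 of FOG2 overexpression libraries 2 to 4 or any 1 WT library, with an edgeR adjusted p up to 0.182 for Cpox and 0.170 for Isca2. The glutathione carriers Slc25a39 and Slc25a40 had log2 fold changes of 0.08 ± 0.13 and -0.20 ± 0.19, with overlapping groups.

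The uncoupling-protein-like members Slc25a14, Slc25a27 and Slc25a30 had log2 fold changes of 0.50, -0.26 and -0.28, none past the test. The uncoupling proteins proper and the MTCH proteins belong to the same family under other names. Of the 4 such genes tested, Ucp2, Ucp3, Mtch1 and Mtch2, 1 was called lower and 0 higher, against 3.29% and 1.55% of all tested genes. Ucp1 was not tested. Ucp3, the uncoupling protein of muscle, had 1.44, 7.80, 5.74 and 1.75 CPM with FOG2 overexpression, against 20.3, 30.6 and 57.3 CPM in WT. Its level fell, with no overlap and a log2 fold change of -3.17 ± 0.58 (edgeR adjusted p = 0.0207). The call was lost without FOG2 overexpression library 1 and without WT libraries 2 and 3, with an edgeR adjusted p of 0.0515, 0.0814 and 0.0795, while the fold change stayed between -3.70 and -2.65 whichever library was left out. Ucp2, Mtch1 and Mtch2 had log2 fold changes of 0.13, 0.20 and -0.10.

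Slc25a46, a member of the outer membrane that acts in mitochondrial shape and lipid transfer, had 99.1, 90.8, 105 and 106 CPM with FOG2 overexpression, against 92.7, 109 and 114 CPM in WT. The groups overlapped almost fully, with a log2 fold change of -0.07 ± 0.10. Of the members of little-known role, Slc25a34 was the most abundant and had 56.2, 88.8, 54.8 and 64.0 CPM with FOG2 overexpression, against 30.8, 72.6 and 94.8 CPM in WT. Its WT libraries spread more than 2-fold. The remaining untested members had 14 counts over all libraries for Slc25a43, 3 for Slc25a41, 2 for Slc25a48 and 0 for Slc25a54. A count of 0 allows a level of up to 3 counts, or 0.0555 CPM over all libraries, a limit that covers counting error only.

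Ratios of paralogs within a library do not depend on how libraries are scaled, and 8 pairs were compared. The ratio of Slc25a4 to Slc25a5 was 19.6, 25.2, 27.8 and 26.7 in the FOG2 overexpression libraries, against 43.4, 54.1 and 42.3 in WT. All FOG2 overexpression libraries lay below all WT libraries. On the log2 scale the ratio differed by -0.91, which put it at 0.531 of its WT value, with an exact two-sided permutation p of 0.0571, the smallest that 4 against 3 libraries allow, and 0.152 adjusted over the 8 pairs. The difference lay between -0.98 and -0.80 whichever library was left out.

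Slc25a37 to Slc25a28 gave 6.004, 2.08, 2.48 and 1.66 with FOG2 overexpression, against 1.49, 1.37 and 1.39 in WT, a log2 difference of 0.92 that was 0.53 without FOG2 overexpression library 1. Slc25a33 to Slc25a36, both pyrimidine nucleotide carriers, gave 0.159, 0.171, 0.116 and 0.176 with FOG2 overexpression, against 0.273, 0.511 and 0.183 in WT, a log2 difference of -0.94 that was -0.54 without WT library 2. Neither pair overlapped between groups, and both had the same smallest permutation p of 0.0571 (exact). The other ratios overlapped, with log2 differences of 0.03 for Slc25a12 to Slc25a13, -0.11 for Slc25a23 to Slc25a24, 0.31 for Slc25a39 to Slc25a40 and 0.36 for Slc25a42 to Slc25a16, both linked to coenzyme A. Slc25a22 to Slc25a18 rested on at most 1 count of Slc25a18 per library and gave no usable value.

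**Figure D4:**
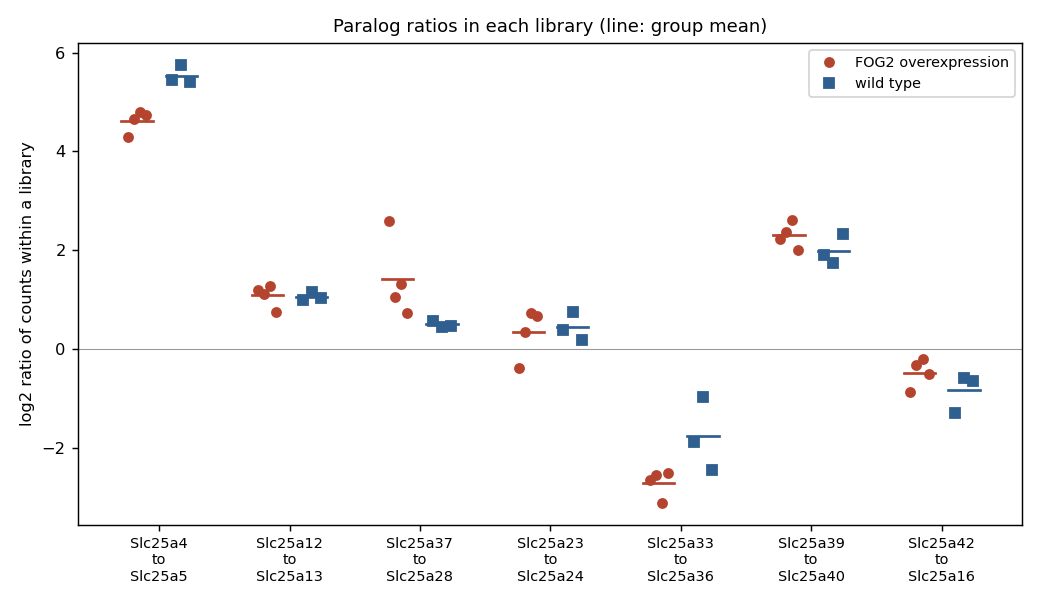
Log2 ratio of counts between 2 paralogs within each library for 7 of the 8 pairs, with FOG2 overexpression (circles, n = 4) left of WT (squares, n = 3) and lines at the group means. The ratio of Slc25a4 to Slc25a5 separates the groups with narrow spreads, while single libraries stand out in the ratios of Slc25a37 to Slc25a28 and of Slc25a33 to Slc25a36.

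In the machinery that inserts carriers into the membrane no gene passed the test. The 16 tested genes covered the outer membrane translocase, the small intermembrane chaperones and the carrier translocase of the inner membrane. Of these 16, 0 were called, against 4.84% of all tested genes. An unadjusted p under 0.05 was reached by 0 of the 16, against 19.2% of all tested genes. Their median log2 fold change was 0.00. Timm8b, a small chaperone, had the smallest p, with a log2 fold change of -0.19 ± 0.13. Among 14 metabolite transporters of other families, 1 was called, against 4.84% of all tested genes. Mpc2, a subunit of the mitochondrial pyruvate carrier, had 129, 125, 108 and 121 CPM with FOG2 overexpression, against 162, 161 and 180 CPM in WT, and fell with a log2 fold change of -0.48 ± 0.10 (edgeR adjusted p = 0.0242). The groups were apart, but the call was lost in each fit without 1 of FOG2 overexpression libraries 2 to 4 or any 1 WT library (edgeR adjusted p = 0.0508 to 0.0952). Of 9 folate and one-carbon enzymes, 1 was called, against the same 4.84%. Dld, a subunit shared by the glycine cleavage system and the pyruvate dehydrogenase complex, fell to 322 ± 27.7 CPM with FOG2 overexpression, against 459 ± 22.8 CPM in WT (edgeR adjusted p = 0.0261), a call also lost without any 1 of those libraries, with an edgeR adjusted p up to 0.131. Scaled to the sarcomere genes, Ppif and Ucp3 were the 2 partner genes still called lower, and the other 8 lost their calls. In that scaling 17 of the 92 tested partner genes were called higher, against 32.6% of all tested genes. With library totals only, 4 of the 92 were called lower and 0 higher, against 294 lower and 444 higher of all 13295 tested genes. The calls of Mpc2, Mdh2, Cpox, Isca2, Dld and Prodh were lost there (edgeR adjusted p = 0.0562 to 0.118).

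**Figure D5:**
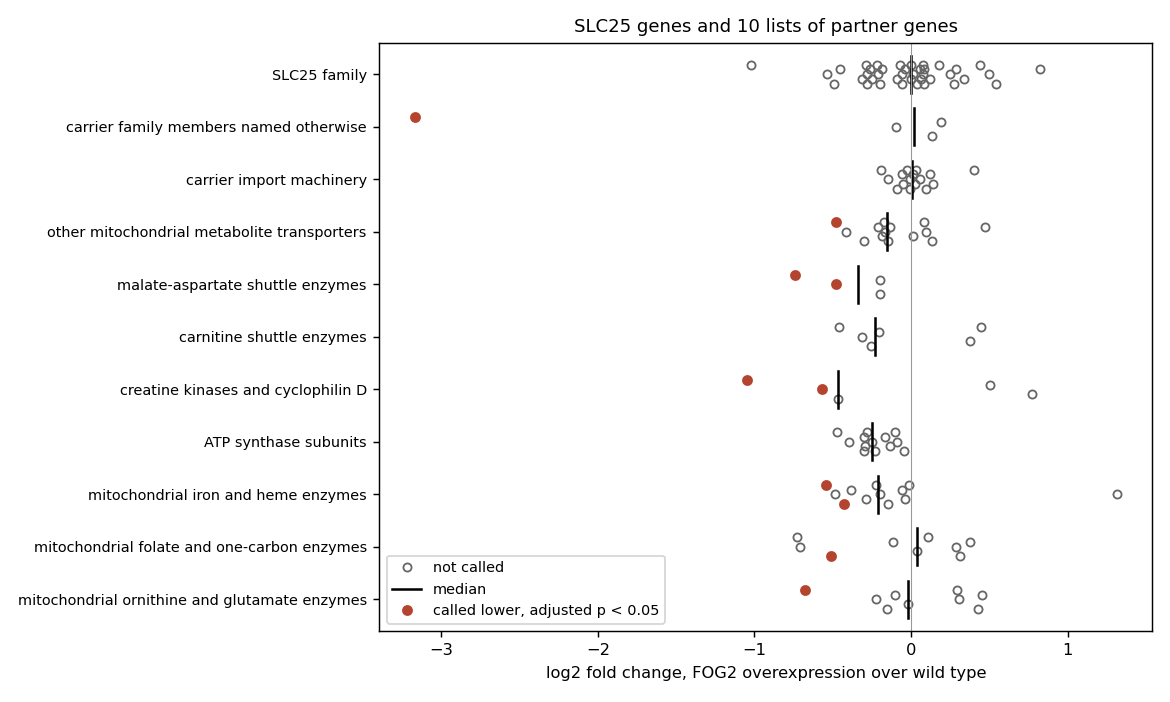
Log2 fold change of FOG2 overexpression over WT for the tested SLC25 genes and for 10 lists of genes that work with them, with filled points for called genes and lines for medians. With TMM scaling all 10 called genes lie left of 0, and the SLC25 row has none.

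GATA factors are the partners of FOG2, so promoter windows were searched for short motifs. Windows from 250 bases before to 50 after a gene's start (RefSeq, GRCm38.p6) were at hand for 36 members and for 27025 genes in all, and both strands were searched. AGATAA, bound by GATA factors, occurred in 2 of the 36, Slc25a5 and Slc25a53, or 5.56% against 11.4% of all windows and 6.34% of the 10059 windows of tested genes. AGGTGTGA, bound by T-box factors, occurred in 1, Slc25a48, or 2.78% against 1.27% of all windows and 0.736% of those of tested genes. The NRF1 motif, GCGC, any 2 bases and GCGC, occurred in Slc25a3, Slc25a10 and Slc25a31, or 8.33%, which is above the 6.43% of all windows and below the 13.5% of those of tested genes. TNAAGGTCA, an ERR motif, occurred in none, against 1.26% of all windows and 0.686% of those of tested genes. These shares of the members rest on 0 to 3 genes each. A match is a description of letters and not a bound site. The 250 bases before the start are shown for Slc25a5, whose GATA match lies 226 bases before it, and, for comparison, for Slc25a1 and Slc25a12, whose groups did not overlap, though neither passed the test, and which had no match. They are chrX:36795347-36795596 on the plus strand, chr16:17928220-17928469 and chr2:71367756-71368005 on the minus strand, each read 5′ to 3′, and the capitals mark that GATA match, which reads AGATAA on the other strand.
Slc25a5: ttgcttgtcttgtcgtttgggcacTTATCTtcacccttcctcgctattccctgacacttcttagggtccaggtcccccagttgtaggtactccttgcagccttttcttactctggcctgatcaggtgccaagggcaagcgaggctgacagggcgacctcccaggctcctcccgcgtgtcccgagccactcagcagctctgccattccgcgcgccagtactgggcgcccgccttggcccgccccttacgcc
Slc25a1: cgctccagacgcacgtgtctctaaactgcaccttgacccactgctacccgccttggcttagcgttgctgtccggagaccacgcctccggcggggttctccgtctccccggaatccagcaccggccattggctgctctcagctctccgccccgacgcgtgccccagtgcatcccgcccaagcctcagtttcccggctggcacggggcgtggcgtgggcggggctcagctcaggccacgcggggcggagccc
Slc25a12: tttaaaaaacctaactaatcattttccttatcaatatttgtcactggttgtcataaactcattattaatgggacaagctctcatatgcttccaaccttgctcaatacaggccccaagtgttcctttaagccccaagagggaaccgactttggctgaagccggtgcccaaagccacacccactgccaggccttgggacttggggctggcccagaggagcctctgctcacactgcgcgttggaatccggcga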

How the data were processed

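The deposited table held raw counts per gene for 7 libraries, 1 column each, matched to samples by name. STAR, HTSeq 0.6.0, DESeq2 and the mm10 build are named per the submitters' processing notes, without their roles. The strand setting and other versions are not given in the sources at hand, and the labels name both polyA selection and ribosomal RNA removal. Library sizes used gene rows only. In the remaining rows, 23.4% to 30.5% of reads had no feature, 37.1% to 43.4% were not unique and 0.101% to 0.254% were ambiguous.

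Genes were filtered with filterByExpr (minimum count 10, minimum total 15), scaled by TMM, and compared in R 4.3.3 with edgeR 4.0.16 by its two-sided quasi-likelihood F test with robust dispersions and no covariate. Benjamini-Hochberg adjustment ran over all 13295 tested genes, with calls at 0.05. Each SE was the size of the log2 fold change divided by the root of F. The test was checked on simulated data. Paralog ratios added 0.5 to each count. Positions, exon lengths, coding sequences and shared 50-base windows came from GENCODE M21, whose symbols matched 95.7% of the table's, and promoter windows from RefSeq.

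The genes named are the called members, of which there were none, the 6 with the highest CPM per kilobase, the 5 with the smallest p, the pair members, untested members, members whose groups did not overlap at a fold of at least 1.5, 6 fixed by name, and up to 3 called genes of each partner list or the 1 with the smallest p. Other members are named to complete a role, and were chosen after their values were seen. The members, lists and pairs were chosen with earlier results of these data known.

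Alternatives were RLE scaling, library totals only, scaling to the sarcomere list, DESeq2 1.42.0, no filter, a filter at 1 CPM in 3 libraries, the replicate number as a block, each library left out in turn, and a covariate for the level of Y-linked transcripts. The fit on libraries without Y-linked transcripts (under 10 CPM) was added after seeing the data.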

Additional observations from a re-analysis of the deposited data

Results flagged for a closer look

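Within the FOG2 overexpression group, library 2 stood apart from the other 3 in 2 carrier genes. Slc25a1, the citrate carrier, had 21.8 CPM there, with 13.6 CPM in the next library, and the gap to it took up 0.869 of the group's range. Ucp1, the uncoupling protein of brown fat, had 15.02 CPM there and 0.222, 0 and 0 CPM in the other FOG2 overexpression libraries, against 0 CPM in each WT library, and was too sparse over the libraries to be tested. The same library held 45.3 CPM of Myl2, the ventricular myosin light chain, against 0 to 1.39 CPM in every other library of both groups. The 6 ventricular markers as a set, Myl2 among them, summed to 171 CPM there. That lay within the 147 to 196 CPM of WT, with 82.3, 132 and 74.9 CPM in FOG2 overexpression libraries 1, 3 and 4. Library 2 also held 17.5 CPM of the adipocyte gene Adipoq, against 0.333 to 1.63 CPM in the other FOG2 overexpression libraries and 2.12 to 4.80 CPM in WT. What these genes share in that library was not tested. At a nominal rate of about 1 in 20, chance would mark 2.2 of the 44 groups examined, and 2 were marked. Both lay in the same library, and the groups are not independent of one another. The cause was not tested.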

How the results depend on the processing

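No SLC25 gene was called with RLE scaling, library totals only, no filter, a CPM filter, the Y-linked covariate, the libraries without Y-linked transcripts, or with any 1 library left out except FOG2 overexpression library 1. Members called lower numbered 4 with DESeq2 and 0 to 2 with 1 library left out, and scaling to the sarcomere list called 11 higher. The members' median log2 fold change was 0.13 with library totals only, 0.46 scaled to the sarcomere list, and -0.11 to 0.0055 with 1 library left out, lowest without WT library 1. Those scalings put the median of all genes at 0.15 and 0.50.

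Over all tested genes, 444 were higher and 294 lower with library totals only, against 206 and 438 with TMM, 4338 higher and 181 lower scaled to the sarcomere list, 437 and 673 with DESeq2, and 75 to 493 higher and 181 to 658 lower with 1 library left out. Scaled to the sarcomere list, the log2 fold change was 0.0052 for Mpc2 and 0.043 for Isca2, the opposite sign to that reported. In that scaling Ppif and Ucp3 were the only partner genes called lower, and 17 of 92 were called higher, against 32.6% of all tested genes. Without the filter, and in the libraries without Y-linked transcripts, Ucp3 had an edgeR adjusted p of 0.0850 and 0.144. Replicate numbers were tried as pairs in a replicate block, which gave 129 genes higher and 253 lower and 0 members called, and Got1, Ppif and Ucp3 kept their calls. Deviations of same-numbered libraries correlated at 0.0789, 0.0136 and 0.0720, so the numbers were not taken to pair the libraries. The causes of these shifts were not tested.

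Slc25a47, the tested member with the fewest counts, 69 over all libraries, had the largest standard error, 0.44 on the log2 scale. None of the paralog ratios could pass 0.05 with 4 against 3 libraries.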
